A study of Mus musculus with 24 samples.

Results

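Ribosome biogenesis and nucleolar factors were followed in CD4 T cells of mice with a T cell deletion of Raptor and in wild-type CD4 T cells, before and after stimulation through the antigen receptor. The set was a list of 51 gene symbols, taken as given and grouped here by role, and 49 of them had a probe set of their own among the 17097 genes of the array. Gnl3 and Tsr1 were not analysed here, since no probe set was listed for Gnl3 and the probe set of Tsr1 was shared with Srr. Where a gene had more than 1 probe set, the one with the highest mean over all 24 arrays was used. This applied to 27 of the 49 genes.

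Naive CD4 T cells (CD4+CD62LhiCD44loCD25-) had been sorted from mouse spleen and peripheral lymph nodes and their RNA hybridised to Affymetrix arrays. The Raptor-deficient cells came from CD4(cre)Raptor(fl/fl) mice, in which Cre recombinase under control of Cd4 regulatory sequences deletes a floxed part of the Raptor gene, Rptor, in developing T cells. The wild-type cells came from C57BL/6 mice, and whether they carried Cre or floxed alleles is not given in the sources used here, nor is the animals' age. Each genotype was measured without stimulation, after 8 h and after 24 h with plate-bound antibodies against CD3 and CD28, part of the antigen receptor complex and a co-stimulatory receptor, with 4 arrays in each of the 6 groups and 24 in all. Nothing in the labels says that the 4 samples of a group came from separate animals, and the p-values describe how far these samples scatter, which may in part be technical.

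Ribosome assembly begins in the nucleolus, where RNA polymerase I transcribes one long precursor of the ribosomal RNAs. Small nucleolar ribonucleoproteins modify the precursor, the small-subunit processome folds and cuts its leading portion, and separate sets of assembly factors then carry the pre-40S and pre-60S particles towards the cytoplasm. Resting naive T cells are small and hold few ribosomes, and they enlarge and build ribosomes before they divide. Raptor belongs to the kinase complex mTORC1 and defines it, and this complex is known to promote ribosome production. The transcription factor Myc is known to bind CACGTG sequences at many genes of this pathway.

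The targeted gene was read first, as log2 intensity, the scale of all levels here. Rptor stood at 5.92, 7.37, 6.55 and 6.79 in Raptor-deficient cells, against 7.04, 7.49, 7.19 and 7.39 in wild-type cells without stimulation, and Raptor-deficient replicate 2 lay inside the wild-type range. At 8 h it stood at 6.41, 6.27, 6.5 and 6.79 in Raptor-deficient cells, against 7.49, 7.51, 7.57 and 7.46 in wild-type cells. At 24 h it stood at 6.25, 6.60, 6.45 and 6.48 in Raptor-deficient cells, against 7.07, 6.91, 7.15 and 7.21 in wild-type cells, and at 8 h and 24 h the genotypes did not overlap. The difference between genotypes was -0.62 ± 0.18 (SE, adjusted p = 0.075) without stimulation, -1.01 ± 0.18 (SE, adjusted p = 0.000292) at 8 h and -0.64 ± 0.18 (SE, adjusted p = 0.0109) at 24 h, by limma with Benjamini-Hochberg adjustment over all genes. Whether this probe set lies in the deleted part is not given in the sources used here. Directions in unstimulated cells therefore rest on the labels, and without the library labelled Raptor-deficient replicate 2 the number of genes called there was the same, 2.

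Of the libraries, unstimulated Raptor-deficient replicates 1, 2 and 3 were the most variable, with a residual SD over all genes of 0.280, 0.222 and 0.206, against 0.119 to 0.172 in the other 21 arrays. Replicate 1 of both 24 h groups held liver transcripts, with a mean level over 5 liver genes of 7.70 in the Raptor-deficient and 7.54 in the wild-type sample. Cd3e and Cd4, defining genes of the labelled cell type, were well above the median of all values, 5.22, in every group. In bulk RNA, fewer cells of a type and less RNA per cell cannot be told apart, and intensities of different probe sets were not compared with each other.

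After 8 h of stimulation nearly every gene of the set was higher than in unstimulated cells of its genotype, in all 7 roles from RNA polymerase I to the last pre-40S steps. In Raptor-deficient cells all 49 genes were called higher, at an adjusted p under 0.05 in limma (16% of all genes), with a median log2 difference of 1.48. In wild-type cells 48 of 49 were called higher (18.9% of all genes), with a median of 2.08. Of these, 43 were at least 2-fold higher, against 1149 of all 17097 genes that were called and that much higher. Over all genes the median differences were 0.002 in Raptor-deficient and -0.03 in wild-type cells. No gene of the set was called lower in either genotype, against 16.8% of all genes in Raptor-deficient and 20.8% in wild-type cells, and at an unadjusted p under 0.05 0 were lower, against 20.4% of all genes in Raptor-deficient and 24.4% in wild-type cells.

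**Figure D1:**
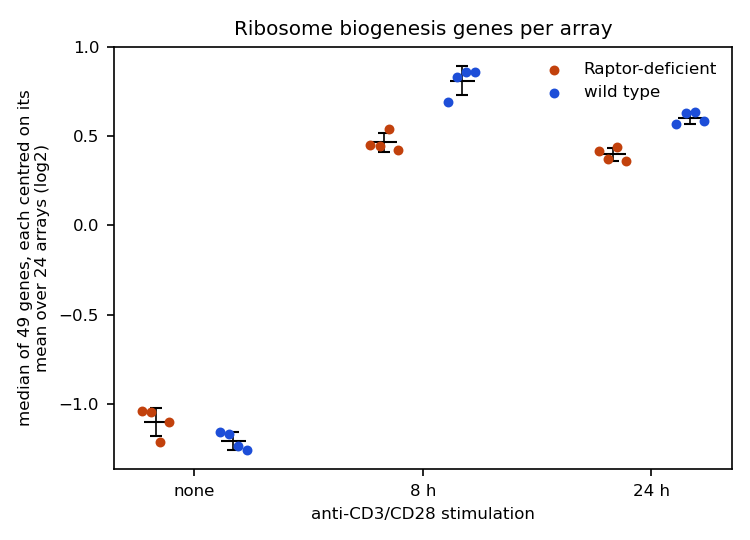
Each point is 1 array, placed by genotype and by time of anti-CD3/CD28 stimulation (x axis), at the median over the 49 genes of the log2 value minus that gene's mean over all 24 arrays (y axis). Orange is Raptor-deficient, blue is wild type, and the bars are the mean ± SD of 4 arrays. Unstimulated groups overlap, while at 8 h and 24 h the Raptor-deficient arrays, up to 0.54 and 0.44, lie below all wild-type arrays, from 0.69 and 0.57 up.

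Among the RNA polymerase I genes, Polr1b, which encodes a catalytic core subunit, moved most. In Raptor-deficient cells at 8 h it stood at 7.12, 7.20, 7.32 and 7.14, against 5.19, 4.72, 4.80 and 4.97 without stimulation, a difference of 2.28 ± 0.11 (SE, adjusted p = 9.83e-15). In wild-type cells it stood at 7.53, 7.80, 8.0 and 7.85, against 4.97, 4.87, 4.79 and 4.54 without stimulation, a difference of 3.01 ± 0.11 (SE, adjusted p = 2.01e-17). Stimulated and unstimulated samples were separate in both genotypes. Rrn3, the initiation factor that recruits the polymerase to the ribosomal RNA promoter, was higher at 8 h by 0.92 ± 0.10 in Raptor-deficient and 1.25 ± 0.10 in wild-type cells. Polr1a, the largest subunit, and Polr1c, a subunit shared with RNA polymerase III, were higher by 1.26 and 0.66 in Raptor-deficient cells and by 1.08 and 0.91 in wild-type cells.

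The H/ACA particle converts uridines of the precursor to pseudouridine. Nhp2, a core protein of the particle, stood at 10.26, 10.46, 10.50 and 10.33 at 8 h in Raptor-deficient cells, against 7.36, 7.41, 7.75 and 7.09 without stimulation, which was 7.92-fold higher. The wild-type values were 10.73, 10.85, 10.92 and 10.96, against 7.64, 7.54, 7.49 and 7.45 without stimulation, which was 10.1-fold higher. No stimulated sample of either genotype came near an unstimulated one. Dkc1, the pseudouridine synthase, was higher by 2.0 on the log2 scale in Raptor-deficient and 2.35 in wild-type cells. Gar1 and Nop10, the other core proteins, were higher by 2.33 and 0.88 in Raptor-deficient cells and by 2.71 and 0.96 in wild-type cells.

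In the C/D particle, which methylates ribosomal RNA at ribose, Nop58 rose most at 8 h, by 2.26 ± 0.084 in Raptor-deficient and 2.74 ± 0.084 in wild-type cells. The methyltransferase Fbl (fibrillarin) stood at 11.20, 11.16, 11.26 and 11.24 in Raptor-deficient cells at 8 h, against 9.17, 9.26, 9.73 and 9.51 without stimulation. Among wild-type samples the values were 11.52, 11.47, 11.38 and 11.49 at 8 h, against 9.48, 9.35, 9.34 and 9.39 without stimulation. Stimulated and unstimulated samples were far apart in each genotype, with differences of 1.80 ± 0.089 in Raptor-deficient and 2.08 ± 0.089 in wild-type cells. Nop56, the partner of Nop58, was higher by 1.05 ± 0.084 in Raptor-deficient and 1.53 ± 0.084 in wild-type cells.

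Nolc1, a nucleolar phosphoprotein that chaperones both kinds of particle, had the largest wild-type rise of the set. In Raptor-deficient cells it stood at 10.02, 9.95, 10.10 and 9.96 at 8 h, against 8.63, 7.40, 6.79 and 7.44 without stimulation, where replicate 1 lay well above the other 3 samples but below every stimulated one. In wild-type cells the values were 10.29, 10.52, 10.41 and 10.56 at 8 h, against 7.30, 6.95, 6.89 and 6.95 without stimulation. These were 5.44-fold higher levels in Raptor-deficient and 10.7-fold in wild-type cells. Ddx21, a helicase that links RNA polymerase I transcription and processing, was higher by 2.16 in Raptor-deficient and 2.46 in wild-type cells. Smaller rises were measured for the abundant nucleolar proteins Ncl (nucleolin) and Npm1 (nucleophosmin), 1.32 and 0.33 in Raptor-deficient cells and 1.18 and 0.71 in wild-type cells. Ncl had 1 probe set, so none of its values could be checked against another.

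The 15 small-subunit processome genes were all called higher at 8 h in both genotypes. In wild-type cells the differences lay between 0.80 for Emg1, an RNA methyltransferase, and 2.60 for Utp20, a large scaffold protein. In Raptor-deficient cells Emg1 rose by 0.29, and this call was lost in 6 of 24 fits without 1 array (adjusted p up to 0.205). Emg1 in unstimulated Raptor-deficient replicate 1, at 9.90, lay above the Raptor-deficient 8 h values, 9.67 to 9.80. Utp15 in that replicate, at 8.68, also lay above its Raptor-deficient 8 h values, 7.96 to 8.24. Utp20 stood at 8.87, 8.88, 9.08 and 8.88 in Raptor-deficient cells at 8 h, against 6.65, 7.13, 7.0 and 6.75 without stimulation. In wild-type cells it stood at 9.10, 9.17, 9.18 and 9.23 at 8 h, against 6.48, 6.71, 6.54 and 6.55 without stimulation. Stimulated and unstimulated samples of Utp20 were separate in both genotypes. Noc4l and Heatr1, further processome proteins, were higher by 1.6 and 2.22 in Raptor-deficient cells and by 2.40 and 2.38 in wild-type cells.

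All 4 later pre-40S factors measured rose at 8 h, with differences between 1.53 and 2.72 in Raptor-deficient cells and between 2.34 and 3.35 in wild-type cells. Rrp12, a factor that accompanies pre-ribosomes out of the nucleus, stood at 7.76, 7.79, 7.75 and 7.65 in Raptor-deficient cells at 8 h, against 4.87, 5.41, 4.88 and 4.92 without stimulation. The wild-type values were 7.95, 8.38, 8.15 and 8.42 at 8 h, against 4.88, 5.25, 4.39 and 4.96 without stimulation. Ltv1, which stays on the pre-40S particle until it matures in the cytoplasm, stood at 9.05, 8.92, 9.04 and 8.68 in Raptor-deficient cells at 8 h, against 7.11, 5.96, 5.50 and 6.48 without stimulation. Its wild-type values were 9.15, 9.34, 9.25 and 9.28 at 8 h, against 6.61, 6.35, 6.36 and 6.39 without stimulation. For both genes the stimulated samples lay apart from the unstimulated ones in each genotype.

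Of the 15 pre-60S factors 15 rose in Raptor-deficient cells at 8 h and 14 in wild-type cells. The largest wild-type rises were those of Rrp1b, a regulator of the nucleolar phosphatase PP1, Nop16 and Mrto4, which resembles a protein of the ribosomal stalk. Their differences were 3.41 ± 0.11, 2.73 ± 0.13 and 2.77 ± 0.13 in Raptor-deficient cells and 3.38 ± 0.11, 3.26 ± 0.13 and 3.25 ± 0.13 in wild-type cells.

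Wdr12, a component of the PeBoW complex with Pes1 and Bop1, was the 1 gene of the 49 not called higher at 8 h in wild-type cells. In Raptor-deficient cells it was higher by 0.44 ± 0.088 (SE, adjusted p = 0.000255), with 8.79, 8.49, 8.87 and 8.74 at 8 h against 8.11, 8.33, 8.43 and 8.28 without stimulation. Among wild-type samples the values were 8.96, 9.02, 8.98 and 9.15 at 8 h, against 9.06, 8.75, 8.81 and 8.98 without stimulation, and the groups overlapped. Averaged over all its probe sets, the wild-type difference was -0.26 (adjusted p = 0.00919), opposite in sign to that of the brightest, 0.13. Its partners Pes1 and Bop1 were higher by 1.32 and 0.96 in Raptor-deficient and by 2.10 and 1.19 in wild-type cells.

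After 24 h the set was still high. In Raptor-deficient cells all 49 genes were called higher than without stimulation (21.6% of all genes), with a median of 1.5, and in wild-type cells 47 of 49 (25.4% of all genes), with a median of 1.85. Between 24 h and 8 h most genes were not called, but most differences were negative. This held for 28 of 49 genes in Raptor-deficient and 38 of 49 in wild-type cells. The medians were -0.11 and -0.12, against -0.01 over all genes in each genotype. In Raptor-deficient cells 7 genes were lower at 24 h (7.81% of all genes) and 3 higher (15.2% of all genes). In wild-type cells 10 were lower (11% of all genes), namely Polr1a, Ncl, Wdr43, Utp18, Utp20, Noc3l, Rrp1b, Rrs1, Ddx10 and Imp4, and 1, Imp3, was higher (17.4% of all genes). With the mean of all probe sets 18 genes were lower and 1 higher in wild-type cells.

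Ncl, read from 1 probe set that no other could check, fell most between 8 h and 24 h. It stood at 8.13, 8.31, 8.27 and 8.28 in Raptor-deficient cells at 24 h, against 8.91, 9.13, 9.23 and 9.11 at 8 h, a difference of -0.85 ± 0.14 (SE, adjusted p = 4.67e-05). In wild-type cells the values were 8.30, 8.33, 8.37 and 8.15 at 24 h, against 8.77, 9.30, 9.26 and 9.28 at 8 h, a difference of -0.86 ± 0.14 (SE, adjusted p = 2.36e-05). Within each genotype the times did not overlap. Noc3l, which accompanies pre-60S particles, fell by 0.33 on the log2 scale in Raptor-deficient and by 0.61 in wild-type cells.

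Imp3, a protein that binds the U3 small nucleolar ribonucleoprotein, went against this direction. At 24 h it stood at 8.97, 8.96, 9.05 and 9.02 in Raptor-deficient cells, against 8.67, 8.62, 8.70 and 8.50 at 8 h, a rise of 0.38 ± 0.089 (SE, adjusted p = 0.00218). In wild-type cells it stood at 9.14, 9.21, 9.39 and 9.20 at 24 h, against 8.87, 9.0, 9.07 and 9.04 at 8 h, a rise of 0.24 ± 0.089 (SE, adjusted p = 0.0442). The 24 h samples lay above all 8 h samples in each genotype. With the arrays centred on their medians, scaled by cyclic loess or with a replicate block, over all samples or within genotype, 0 genes of the set were called higher in wild-type cells at 24 h than at 8 h. Dkc1 and Emg1 also rose in Raptor-deficient cells, by 0.33 ± 0.083 and 0.36 ± 0.11, and their wild-type differences of 0.11 and 0.20 were not called.

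Since nearly all of the genes rose together, their promoters were read for short sequences, in windows from 250 bases before to 50 bases after the start in RefSeq (assembly GRCm38.p6). Of the 51 genes 46 had a window. CACGTG, a palindrome that reads alike on both strands, was present in 10 of 46 (21.7%), against 7.15% of all 32851 windows and 10.2% of the 13605 measured genes with a window. Shares of genes count a match in any window of the gene, so the share of windows is a different unit. CCGGAAG on either strand, a sequence bound by ETS-family factors, was present in 18 of 46 (39.1%), against 8.86% and 15%. GCATGCG on either strand was present in 2 of 46 (4.35%), against 3.58% and 5.79%. Among 53 other ribosome biogenesis genes CACGTG was present in 15.1% and CCGGAAG in 52.8%, and among 53 ribosomal protein genes in 11.3% and 45.3%. A match describes letters and is not a measured binding site. The 9 measured genes with CACGTG had a median wild-type 8 h difference of 2.18 and the 35 without it 1.89, with overlapping ranges. The 4 promoters printed here are those of the genes with CACGTG and the largest wild-type rises at 8 h, and show where the sequence, in capitals, lies relative to the start.
Ltv1, chr10:13193088-13193387, minus strand: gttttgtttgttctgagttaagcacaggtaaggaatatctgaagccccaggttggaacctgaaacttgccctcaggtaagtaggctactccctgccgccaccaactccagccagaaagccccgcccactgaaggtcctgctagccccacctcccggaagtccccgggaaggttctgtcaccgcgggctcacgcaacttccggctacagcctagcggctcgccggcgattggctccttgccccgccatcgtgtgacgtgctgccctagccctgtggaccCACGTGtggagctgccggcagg
Utp20, chr10:88826765-88827064, minus strand: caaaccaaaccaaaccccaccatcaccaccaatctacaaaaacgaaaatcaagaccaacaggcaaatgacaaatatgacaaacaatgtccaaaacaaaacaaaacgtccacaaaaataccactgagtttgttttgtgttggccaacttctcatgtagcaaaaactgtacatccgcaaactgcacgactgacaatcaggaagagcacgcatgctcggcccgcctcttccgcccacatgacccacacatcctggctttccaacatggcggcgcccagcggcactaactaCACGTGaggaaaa
Nop2, chr6:125131633-125131932, plus strand: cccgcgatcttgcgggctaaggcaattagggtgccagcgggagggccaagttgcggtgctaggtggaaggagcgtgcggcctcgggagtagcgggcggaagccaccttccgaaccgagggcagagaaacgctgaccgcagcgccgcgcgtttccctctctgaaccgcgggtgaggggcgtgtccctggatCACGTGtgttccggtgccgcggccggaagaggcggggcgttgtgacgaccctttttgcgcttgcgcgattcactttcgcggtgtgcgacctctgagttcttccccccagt
Pno1, chr11:17211540-17211839, minus strand: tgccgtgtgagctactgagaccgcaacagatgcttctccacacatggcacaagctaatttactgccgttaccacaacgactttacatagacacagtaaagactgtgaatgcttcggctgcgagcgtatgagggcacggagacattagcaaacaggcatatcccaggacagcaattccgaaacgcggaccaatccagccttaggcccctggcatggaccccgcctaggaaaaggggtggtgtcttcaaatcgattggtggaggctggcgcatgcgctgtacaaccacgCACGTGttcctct
In Ltv1 the first base of CACGTG lay 28 bases after the start, and in Utp20 and Pno1 37 bases after it. In Nop2, the gene of an rRNA cytosine methyltransferase of the pre-60S particle, it lay 60 bases before the start.

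Comparing the genotypes at the same time addressed how levels differed with loss of Raptor. Without stimulation 2 of the 49 genes were called lower in Raptor-deficient than in wild-type cells and 0 higher in limma, against 1.24% and 0.702% of all genes, and the median difference was 0.05. At an unadjusted p under 0.05, 5 genes were lower and 11 higher, against 8.29% and 5.66% of all genes. Polr1a stood at 7.61, 7.70, 8.04 and 7.75 in Raptor-deficient cells, against 8.24, 8.20, 8.07 and 8.19 in wild-type cells, a difference of -0.40 ± 0.084 (SE, adjusted p = 0.00881). Wdr12 stood at 8.11, 8.33, 8.43 and 8.28 in Raptor-deficient cells, against 9.06, 8.75, 8.81 and 8.98 in wild-type cells, a difference of -0.61 ± 0.088 (SE, adjusted p = 0.0002). Both genes were separate between genotypes without stimulation. Wdr12 was called lower at all 3 times, the 1 gene of the set for which this held. At 8 h it stood at 8.79, 8.49, 8.87 and 8.74 in Raptor-deficient cells, against 8.96, 9.02, 8.98 and 9.15 in wild-type cells. At 24 h it stood at 8.78, 8.72, 8.83 and 8.74 in Raptor-deficient cells, against 9.10, 9.13, 9.10 and 9.09 in wild-type cells, and neither time had overlap. Averaged over its probe sets, the 24 h difference was -0.14 and not called (adjusted p = 0.227). The 8 h call was lost with cyclic loess (adjusted p = 0.155), without Raptor-deficient replicate 2 (0.114) and without wild-type replicate 4 (0.0812). Without the unstimulated libraries labelled Raptor-deficient replicates 2 and 3, 7 genes were called, 5 of them higher, and without replicate 3 alone 8.

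The other genes followed by sample were not called between genotypes without stimulation. Rrn3 stood at 7.28, 7.08, 6.81 and 7.21 in Raptor-deficient cells, against 7.0, 7.26, 6.98 and 6.96 in wild-type cells. Dkc1 stood at 7.88, 7.81, 7.78 and 8.10 in Raptor-deficient cells, against 8.26, 8.07, 8.02 and 7.94 in wild-type cells. Gar1 stood at 8.60, 8.90, 9.05 and 8.98 in Raptor-deficient cells, against 8.80, 8.77, 8.61 and 8.69 in wild-type cells. These 3 genes overlapped between genotypes. Nop56 stood at 9.74, 10.06, 9.74 and 10.04 in Raptor-deficient cells, against 9.76, 9.70, 9.61 and 9.58 in wild-type cells, with overlap. Nop58 stood at 8.06, 8.23, 7.95 and 8.30 in Raptor-deficient cells, against 8.08, 8.14, 7.97 and 7.92 in wild-type cells, with overlap. Ddx21 and Npm1 overlapped as well. The Ddx21 values were 8.20, 8.09, 8.34 and 8.44 in Raptor-deficient cells, against 8.44, 8.22, 8.35 and 8.31 in wild-type cells. The Npm1 values were 12.45, 12.62, 12.35 and 12.49 in Raptor-deficient cells, against 12.32, 12.43, 12.24 and 12.38 in wild-type cells. Noc4l, which overlapped and was highest in Raptor-deficient replicate 2, stood at 7.52, 8.11, 7.64 and 7.95 in Raptor-deficient cells, against 7.69, 7.47, 7.69 and 7.58 in wild-type cells.

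Of the later pre-40S genes Bysl stood at 5.95, 5.87, 6.61 and 6.25 in Raptor-deficient cells, against 6.48, 6.05, 6.31 and 6.49 in wild-type cells without stimulation, with overlap. Pno1 stood at 6.28, 6.58, 6.20 and 6.41 in Raptor-deficient cells, against 5.82, 6.11, 6.06 and 6.13 in wild-type cells, and here every Raptor-deficient sample was above every wild-type sample, a difference of 0.34 ± 0.092 with adjusted p = 0.0534. For the pre-60S genes Nop2, Ddx56, Nop16 and Rrp1b the genotypes overlapped. Nop2 stood at 6.40, 7.01, 6.59 and 6.60 in Raptor-deficient cells, against 6.69, 6.5, 6.44 and 6.75 in wild-type cells. Ddx56 stood at 5.97, 6.41, 5.74 and 5.59 in Raptor-deficient cells, against 5.92, 6.01, 5.80 and 6.16 in wild-type cells. Nop16, highest in wild-type replicate 3, stood at 5.47, 5.17, 4.84 and 5.43 in Raptor-deficient cells, against 5.10, 5.10, 5.61 and 5.18 in wild-type cells. In Rrp1b Raptor-deficient replicate 1 alone reached the wild-type range, with 6.95, 6.68, 6.78 and 6.57 in Raptor-deficient cells, against 7.18, 6.91, 7.30 and 6.96 in wild-type cells.

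At 8 h 24 of the 49 genes were called lower in Raptor-deficient than in wild-type cells and 0 higher in limma, against 8.77% and 4.14% of all genes, and at an unadjusted p under 0.05 0 were higher, against 9.84% of all genes. All 49 differences were negative, 45 of 49 when the arrays were scaled by cyclic loess, with a median of -0.30 against 0.01 over all genes. The 4 Raptor-deficient samples lay below all 4 wild-type samples for 37 genes, as they did for 12.5% of all genes. The differences were small, between -0.60 and -0.03, and 2 genes, Noc4l and Polr1b, were called with a fold of at least 1.5. The share of all genes called with that fold is not set beside this count, which is therefore a description.

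**Figure D2:**
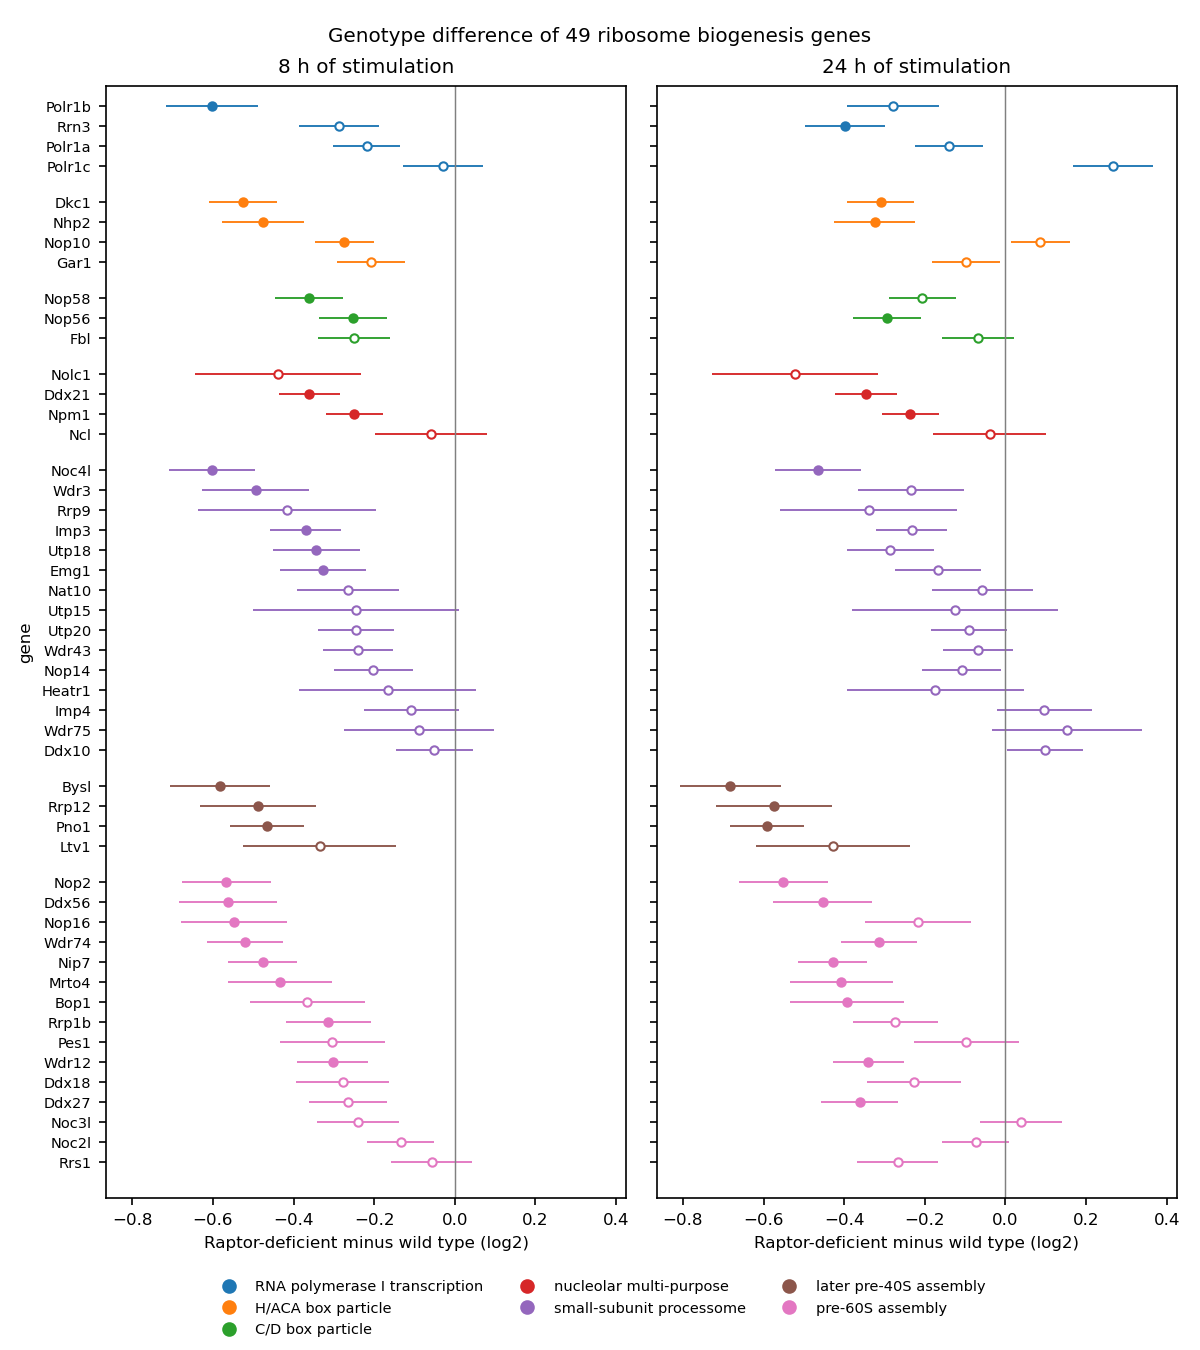
Each point is the log2 difference, Raptor-deficient minus wild type, of 1 gene (rows) at 8 h (left) or 24 h (right), with its SE, coloured by role. Filled points were called at an adjusted p under 0.05, 24 genes at 8 h and 18 at 24 h. All points at 8 h lie left of 0.

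Polr1b was 1.52-fold lower at 8 h, a log2 difference of -0.60 ± 0.11 (SE, adjusted p = 0.000576). It stood at 7.12, 7.20, 7.32 and 7.14 in Raptor-deficient cells, against 7.53, 7.80, 8.0 and 7.85 in wild-type cells. The genotypes did not overlap, and the other 3 RNA polymerase I genes were not called at 8 h. Rrn3 stood at 8.04, 8.16, 7.93 and 7.92 in Raptor-deficient cells, against 8.24, 8.38, 8.38 and 8.20 in wild-type cells, also without overlap, a difference of -0.29 ± 0.10 with adjusted p = 0.0547.

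Of the H/ACA genes Nhp2, Nop10 and Dkc1 were called lower at 8 h (8.77% of all genes) and Gar1 was not. Dkc1 stood at 9.86, 9.93, 10.0 and 9.79 in Raptor-deficient cells, against 10.35, 10.50, 10.36 and 10.48 in wild-type cells, a difference of -0.53 ± 0.083 (SE, adjusted p = 7.86e-05). Nhp2 stood at 10.26, 10.46, 10.50 and 10.33 in Raptor-deficient cells, against 10.73, 10.85, 10.92 and 10.96 in wild-type cells, a difference of -0.48 ± 0.10 (SE, adjusted p = 0.00171). For both genes every Raptor-deficient sample was lower than every wild-type sample. Gar1 stood at 11.16, 11.21, 11.24 and 11.25 in Raptor-deficient cells, against 11.30, 11.47, 11.46 and 11.47 in wild-type cells, without overlap, and wild-type replicate 1 was the lowest of its group.

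In the C/D particle Nop56 and Nop58 were called lower and Fbl was not. Nop58 stood at 10.29, 10.47, 10.49 and 10.35 in Raptor-deficient cells, against 10.64, 10.78, 10.82 and 10.81 in wild-type cells, a difference of -0.36 ± 0.084 (SE, adjusted p = 0.00378). Nop56 stood at 10.87, 11.04, 10.99 and 10.87 in Raptor-deficient cells, against 11.11, 11.24, 11.27 and 11.16 in wild-type cells, a difference of -0.25 ± 0.084 (SE, adjusted p = 0.0491). Fbl stood at 11.20, 11.16, 11.26 and 11.24 in Raptor-deficient cells, against 11.52, 11.47, 11.38 and 11.49 in wild-type cells, with a difference of -0.25 ± 0.089 and adjusted p = 0.0667. All 3 genes were separate between genotypes.

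Of the nucleolar proteins Npm1 and Ddx21 were called lower at 8 h. Ddx21 stood at 10.41, 10.49, 10.43 and 10.38 in Raptor-deficient cells, against 10.72, 10.89, 10.77 and 10.76 in wild-type cells, a difference of -0.36 ± 0.076 (SE, adjusted p = 0.00172). Npm1 stood at 12.76, 12.83, 12.84 and 12.79 in Raptor-deficient cells, against 13.03, 13.04, 13.12 and 13.02 in wild-type cells, a difference of -0.25 ± 0.071 (SE, adjusted p = 0.0175). Neither gene overlapped between genotypes. Nolc1, whose values at 8 h are given above, was separate between genotypes with a difference of -0.44 ± 0.21, and Ncl differed by -0.06 ± 0.14, both not called.

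Of the 15 small-subunit processome genes Noc4l, Wdr3, Utp18, Imp3 and Emg1 were called lower at 8 h (8.77% of all genes). The Emg1 call was lost with cyclic loess (-0.24, adjusted p = 0.149) and without any 1 of the 8 arrays compared (adjusted p = 0.0528 to 0.112). The Utp18 call was lost in 5 of 24 fits that each left out 1 array (adjusted p up to 0.119). Noc4l stood at 9.29, 9.32, 9.60 and 9.44 in Raptor-deficient cells, against 9.95, 9.98, 10.16 and 9.96 in wild-type cells, a difference of -0.60 ± 0.11 (SE, adjusted p = 0.000297). The genotypes did not overlap, and wild-type replicate 3 was the highest of its group. Utp20 stood at 8.87, 8.88, 9.08 and 8.88 in Raptor-deficient cells, against 9.10, 9.17, 9.18 and 9.23 in wild-type cells, without overlap, with a difference of -0.24 ± 0.094 and adjusted p = 0.0932.

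Later pre-40S assembly had the lowest median of the 7 roles at 8 h, -0.48, with 3 of 4 genes called lower (8.77% of all genes). Bysl (bystin), an early-binding pre-40S protein, stood at 8.37, 8.42, 8.51 and 8.47 in Raptor-deficient cells, against 8.87, 9.11, 9.08 and 9.05 in wild-type cells, a difference of -0.58 ± 0.12 (SE, adjusted p = 0.00183). Pno1, a partner of the endonuclease that makes the final cut of 18S rRNA, stood at 7.92, 7.84, 8.04 and 7.79 in Raptor-deficient cells, against 8.21, 8.46, 8.46 and 8.33 in wild-type cells, a difference of -0.47 ± 0.092 (SE, adjusted p = 0.000888). Rrp12 stood at 7.76, 7.79, 7.75 and 7.65 in Raptor-deficient cells, against 7.95, 8.38, 8.15 and 8.42 in wild-type cells, a difference of -0.49 ± 0.14 (SE, adjusted p = 0.0224). For these 3 genes and Ltv1 all Raptor-deficient samples lay below all wild-type samples. Ltv1 differed by -0.34 ± 0.19 (adjusted p = 0.3). The Rrp12 call was lost in 3 of 24 fits that each left out 1 array (adjusted p up to 0.0836).

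Among the 15 pre-60S factors Nop2, Nop16, Wdr12, Wdr74, Rrp1b, Ddx56, Mrto4 and Nip7 were called lower at 8 h (8.77% of all genes). Nop2 stood at 8.43, 8.55, 8.73 and 8.48 in Raptor-deficient cells, against 8.98, 9.09, 9.28 and 9.11 in wild-type cells, a difference of -0.57 ± 0.11 (SE, adjusted p = 0.000736). Ddx56, an RNA helicase, stood at 7.15, 7.31, 7.36 and 7.36 in Raptor-deficient cells, against 7.94, 7.83, 8.0 and 7.66 in wild-type cells, a difference of -0.56 ± 0.12 (SE, adjusted p = 0.00214). Nop16 stood at 7.86, 8.0, 8.14 and 7.84 in Raptor-deficient cells, against 8.23, 8.63, 8.57 and 8.60 in wild-type cells, a difference of -0.55 ± 0.13 (SE, adjusted p = 0.00497). For Nop2 and Ddx56 the genotypes were separate at 8 h, and for Nop16 too, where wild-type replicate 1 was the lowest of its group. Averaged over its probe sets, Nop16 differed by -0.26 and was not called (adjusted p = 0.0877). Rrp1b stood at 10.09, 10.04, 10.37 and 10.12 in Raptor-deficient cells, against 10.23, 10.48, 10.60 and 10.57 in wild-type cells, with overlap, a difference of -0.31 ± 0.11 (SE, adjusted p = 0.0492). Its call, like that of Nop56, was close to the threshold and was lost with cyclic loess (adjusted p = 0.247 for Rrp1b and 0.166 for Nop56) and with only the groups compared (0.0623 and 0.0543). The Mrto4 call was lost in 5 of 24 fits that each left out 1 array (adjusted p up to 0.0787).

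At 24 h 18 of the 49 genes were called lower in Raptor-deficient than in wild-type cells and 0 higher in limma, against 13.1% and 8.35% of all genes, and at an unadjusted p under 0.05 1 was higher, against 13.7% of all genes. With array weights, only the groups compared, the filter on dim genes, cyclic loess, an intensity trend with a robust prior, or without unstimulated Raptor-deficient samples 2 and 3, 1 gene was called higher. The share was closer to the background than at 8 h, where 24 of 49 stood against 8.77%. The differences were negative for 43 genes, with a median of -0.24, and the groups did not overlap with Raptor-deficient samples lower for 29 genes (16.5% of all genes) and higher for 3, Polr1c, Nop10 and Imp4 (12% of all genes). Of the 24 genes called at 8 h, 15 (62.5%) were also called at 24 h, and these made up 83.3% of the 18. The same overlap was not taken over all genes, so these shares only describe the set. Without replicate 1 of both genotypes, the samples with liver transcripts, 13 genes were called lower at 24 h and 0 higher, with a median of -0.26. Rrn3, Bop1 and Ddx27 were called at 24 h alone, and 22 genes at neither time. The Bop1 call was lost when any 1 of 18 of the 24 arrays was left out (adjusted p up to 0.12).

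The later pre-40S genes again had the lowest median of the 7 roles, -0.58. Bysl stood at 8.30, 8.22, 8.34 and 8.07 in Raptor-deficient cells, against 8.72, 9.0, 9.0 and 8.93 in wild-type cells at 24 h, a difference of -0.68 ± 0.12 (SE, adjusted p = 0.000184). Pno1 stood at 7.77, 7.82, 7.80 and 7.78 in Raptor-deficient cells, against 8.31, 8.31, 8.54 and 8.37 in wild-type cells, a difference of -0.59 ± 0.092 (SE, adjusted p = 2.48e-05). Bysl and Pno1 were the 2 genes called with a fold of at least 1.5, a count again given without the share of all genes. Rrp12 stood at 7.31, 7.46, 7.71 and 7.42 in Raptor-deficient cells, against 7.93, 8.12, 8.15 and 8.0 in wild-type cells, a difference of -0.57 ± 0.14 (SE, adjusted p = 0.00425). Every Raptor-deficient sample was lower than every wild-type sample for these genes. Ltv1 was separate too, with 8.78, 8.52, 8.61 and 8.67 in Raptor-deficient cells, against 9.06, 9.05, 9.01 and 9.17 in wild-type cells, but its adjusted p was 0.12, and 0.0177 without unstimulated Raptor-deficient replicate 1, whose deviation enters the shared spread.

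**Figure D3:**
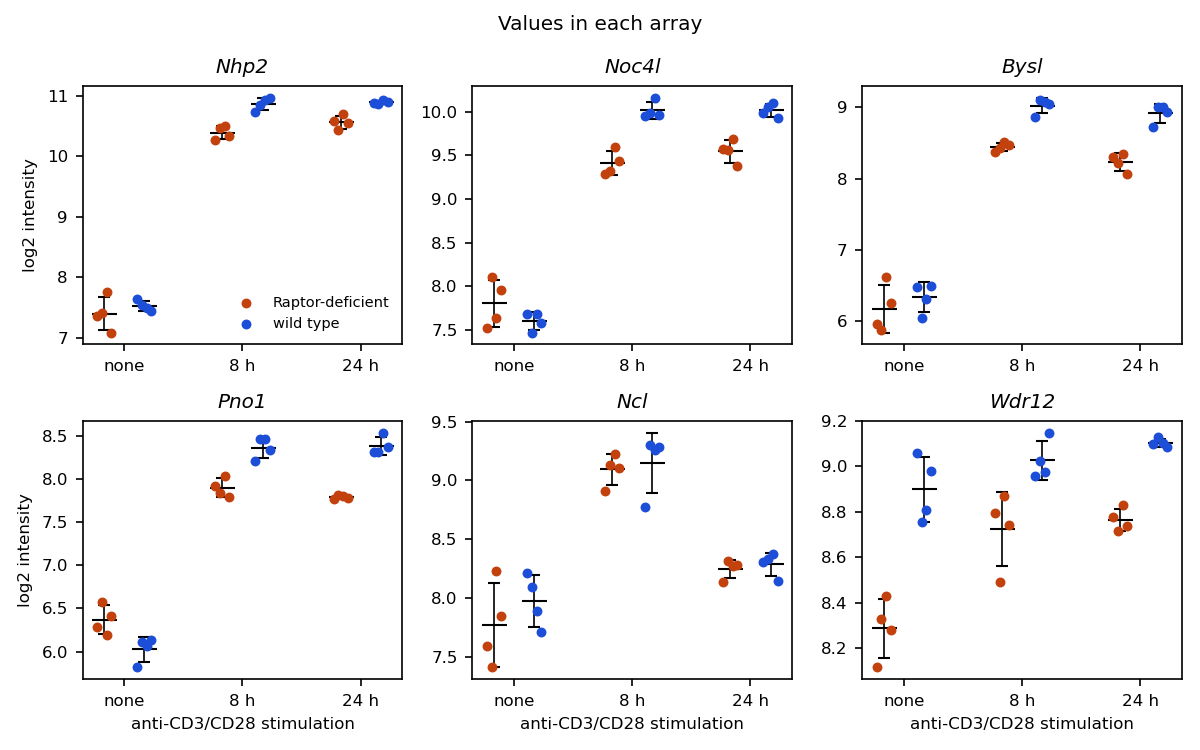
Log2 intensity (y axis) of 6 genes in each array by time of stimulation (x axis), Raptor-deficient in orange and wild type in blue, with the mean ± SD of 4 arrays as bars. Nhp2, Noc4l, Bysl and Pno1 are high in all stimulated arrays and lower in Raptor-deficient ones at 8 h and 24 h. Ncl falls back by 24 h in both genotypes, and Wdr12 is lower in Raptor-deficient arrays at all 3 times.

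Of the pre-60S factors 8 of 15 were called lower at 24 h (13.1% of all genes). Nop2 stood at 8.23, 8.55, 8.57 and 8.41 in Raptor-deficient cells, against 8.93, 9.0, 9.03 and 9.02 in wild-type cells, a difference of -0.55 ± 0.11 (SE, adjusted p = 0.000503). Ddx56 stood at 7.39, 7.53, 7.46 and 7.39 in Raptor-deficient cells, against 7.83, 7.87, 8.02 and 7.85 in wild-type cells, a difference of -0.45 ± 0.12 (SE, adjusted p = 0.00775). Both genes were separate between genotypes. Bop1 and Wdr12, PeBoW components, were lower by 0.39 and 0.34 on the log2 scale, Nip7 by 0.43, Mrto4 by 0.41, and the helicase Ddx27 by 0.36. The limits of the Bop1 and Wdr12 calls are given above. The Mrto4 call at 24 h was lost in 3 of 24 fits that each left out 1 array (adjusted p up to 0.0674). Nop16 stood at 8.08, 8.31, 8.36 and 8.17 in Raptor-deficient cells, against 8.30, 8.37, 8.56 and 8.56 in wild-type cells, with overlap, and was not called (-0.22 ± 0.13). Rrp1b stood at 9.71, 9.90, 9.94 and 9.84 in Raptor-deficient cells, against 10.04, 10.18, 10.24 and 10.02 in wild-type cells, without overlap, and was not called either (-0.27 ± 0.11).

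Of the 15 small-subunit processome genes 1, Noc4l, was called lower at 24 h, a share not above the 13.1% of all genes. Noc4l stood at 9.57, 9.56, 9.69 and 9.37 in Raptor-deficient cells, against 9.98, 10.05, 10.10 and 9.92 in wild-type cells, a difference of -0.47 ± 0.11 (SE, adjusted p = 0.00203). The genotypes did not overlap. Utp20 stood at 8.72, 8.79, 8.84 and 8.57 in Raptor-deficient cells, against 8.75, 8.95, 8.82 and 8.77 in wild-type cells, with overlap and a difference of -0.09 ± 0.094 that was not called.

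Rrn3 was the 1 RNA polymerase I gene of 4 called at 24 h (13.1% of all genes were called lower). It stood at 7.83, 7.60, 7.71 and 7.82 in Raptor-deficient cells, against 8.07, 8.18, 8.26 and 8.03 in wild-type cells, a difference of -0.40 ± 0.10 (SE, adjusted p = 0.00388). Polr1b stood at 7.52, 7.26, 7.59 and 7.29 in Raptor-deficient cells, against 7.62, 7.71, 7.82 and 7.62 in wild-type cells, a difference of -0.28 ± 0.11 with adjusted p = 0.0853. Neither Rrn3 nor Polr1b overlapped between genotypes. Polr1c was higher by 0.27 but not called (adjusted p = 0.0566).

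In the modifying particles Nhp2, Dkc1 and Nop56 were called lower at 24 h. Without replicate 1 of both 24 h groups the Nhp2 and Nop56 calls were lost (adjusted p = 0.0639 and 0.0617). The Nhp2 call was also lost with cyclic loess (adjusted p = 0.0543) and in 2 of 24 fits without 1 array (up to 0.0794). Nhp2 stood at 10.58, 10.44, 10.69 and 10.54 in Raptor-deficient cells, against 10.88, 10.87, 10.92 and 10.89 in wild-type cells, a difference of -0.32 ± 0.10 (SE, adjusted p = 0.0211). Dkc1 stood at 10.16, 10.23, 10.27 and 10.22 in Raptor-deficient cells, against 10.47, 10.50, 10.54 and 10.61 in wild-type cells, a difference of -0.31 ± 0.083 (SE, adjusted p = 0.00777). Nop56 stood at 10.78, 10.76, 10.96 and 10.81 in Raptor-deficient cells, against 11.12, 11.21, 11.11 and 11.06 in wild-type cells, a difference of -0.29 ± 0.084 (SE, adjusted p = 0.0123). All 3 genes were separate between genotypes. Nop58 stood at 10.46, 10.35, 10.53 and 10.47 in Raptor-deficient cells, against 10.60, 10.65, 10.65 and 10.74 in wild-type cells, without overlap, and was not called (adjusted p = 0.085). Gar1 stood at 11.28, 11.26, 11.41 and 11.35 in Raptor-deficient cells, against 11.33, 11.48, 11.42 and 11.45 in wild-type cells, a difference of -0.10 ± 0.084. Fbl stood at 11.42, 11.32, 11.39 and 11.33 in Raptor-deficient cells, against 11.42, 11.47, 11.40 and 11.44 in wild-type cells, a difference of -0.07 ± 0.089. Gar1 and Fbl overlapped between genotypes and were not called.

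Ddx21 and Npm1 were called lower at 24 h as well. The Npm1 call was lost without replicate 1 of both 24 h groups (adjusted p = 0.0669). It was also lost in 1 of 24 fits without 1 array (adjusted p = 0.058). Ddx21 stood at 10.30, 10.17, 10.25 and 10.24 in Raptor-deficient cells, against 10.54, 10.61, 10.60 and 10.59 in wild-type cells, a difference of -0.35 ± 0.076 (SE, adjusted p = 0.00143). Npm1 stood at 12.84, 12.92, 12.93 and 12.81 in Raptor-deficient cells, against 13.09, 13.14, 13.07 and 13.15 in wild-type cells, a difference of -0.24 ± 0.071 (SE, adjusted p = 0.0168). Neither overlapped between genotypes. Nolc1 stood at 9.77, 9.85, 9.97 and 9.80 in Raptor-deficient cells, against 10.29, 10.34, 10.41 and 10.44 in wild-type cells, a difference of -0.52 ± 0.21 with adjusted p = 0.0757, and 0.000983 without unstimulated Raptor-deficient replicate 1. The 3 genes nearest to no difference between genotypes at 24 h were Noc3l at 0.04 ± 0.10, Ncl at -0.04 ± 0.14 and Nat10, an RNA cytidine acetyltransferase, at -0.06 ± 0.13.

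Markers of other cells were read beside these differences. The mean level over 8 myeloid markers was 4.92 to 5.03 in Raptor-deficient and 4.51 to 4.62 in wild-type samples at 8 h and 4.50 to 4.74 against 4.36 to 4.45 at 24 h, with 2 of the 8 genes called higher in Raptor-deficient cells at each time. The mean over 6 B cell markers was 4.64 to 5.11 in Raptor-deficient and 4.42 to 4.51 in wild-type samples at 8 h, with 0 of 6 called, and 4.81 to 5.43 against 4.36 to 4.56 at 24 h, with 2 of 6 called higher. The highest B cell level among the Raptor-deficient samples was that of replicate 1 at both times. The CD4 T cell list had a mean of 9.81 to 9.96 in Raptor-deficient and 10.16 to 10.28 in wild-type samples at 8 h, with 3 of 9 genes called lower, and 10.42 to 10.53 in both genotypes at 24 h, with 1 lower. Over 2 CD8 T cell markers the mean was 5.63 to 6.01 in Raptor-deficient and 6.14 to 6.36 in wild-type samples at 8 h, without overlap and with 0 of 2 called, and the groups overlapped at 24 h. Of 5 NK cell markers 0 were called at 8 h and 1, Nkg7, was higher at 24 h, with 5.69 to 6.08 in Raptor-deficient and 4.65 to 5.48 in wild-type samples. Of 2 erythroid markers 0 were called, and Hba-a1 was 7.15 to 8.5 in Raptor-deficient and 6.65 to 7.23 in wild-type samples at 8 h and 6.92 to 8.64 against 6.37 to 6.83 at 24 h. The 5 liver genes held 0 calls at either time. The part of these cells in the results for ribosome biogenesis genes was not tested.

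Per sample, the median over the 49 genes after centring each on its mean lay between -1.22 and -1.04 in unstimulated Raptor-deficient and between -1.26 and -1.16 in unstimulated wild-type cells, which overlapped. At 8 h the Raptor-deficient samples lay between 0.42 and 0.54, below the wild-type samples between 0.69 and 0.86. At 24 h they lay between 0.36 and 0.44, below 0.57 to 0.63 in wild-type cells.

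Whether the response itself differed between genotypes was tested as the Raptor-deficient change minus the wild-type change. At 8 h 15 of the 49 genes had a lower change in Raptor-deficient cells and 0 a higher one in limma, against 4.36% and 1.94% of all genes, with a median difference of -0.37. At an unadjusted p under 0.05 these were 31 and 1, against 10.7% and 8.69% of all genes. With only the groups compared in the fit, 7 genes had a lower change at 8 h, and with the mean of all probe sets 14 a lower and 1 a higher one. At 24 h 13 genes were lower and 0 higher, against 8.01% and 5.26% of all genes, with a median of -0.29, and 25 and 3 at an unadjusted p, against 13.2% and 11.6%. Pno1 had -0.81 ± 0.13 (SE, adjusted p = 0.000446) at 8 h and -0.93 ± 0.13 (SE, adjusted p = 1.19e-05) at 24 h. Nolc1 had -0.98 ± 0.29 (SE, adjusted p = 0.0432) at 8 h and -1.06 ± 0.29 (SE, adjusted p = 0.0147) at 24 h. Without unstimulated Raptor-deficient replicate 1, where Nolc1 was high, the Nolc1 values were -0.62 ± 0.17 (SE, adjusted p = 0.0203) and -0.71 ± 0.17 (SE, adjusted p = 0.0043), and those of Pno1 were -0.83 and -0.96. The Nolc1 call at 8 h was lost when any 1 of 16 of the 24 arrays was left out (adjusted p up to 0.0822). Its call at 24 h was kept in each of these fits. Noc4l had -0.80 ± 0.15 (SE, adjusted p = 0.00188) at 8 h and -0.66 ± 0.15 (SE, adjusted p = 0.0036) at 24 h.

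The unstimulated Raptor-deficient samples, whose spread is given above, enter every one of these values. A higher level there lowers the change just as a lower stimulated level does. Without stimulation 11 genes were higher and 5 lower at an unadjusted p under 0.05 in limma, against 5.66% and 8.29% of all genes. Nolc1, Nop14, Utp20, Pes1 and Ddx18, with a lower change at 8 h, were called between genotypes at neither 8 h nor 24 h. The part of each level in these differences was not tested. With unstimulated Raptor-deficient replicates 2 and 3 left out, 23 genes had a lower change at 8 h, also the number without replicate 3 alone, and 20 a lower and 1 a higher one at 24 h.

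For Polr1a and Wdr12, lower without stimulation, the differences in response at 8 h were 0.18 ± 0.12 and 0.31 ± 0.12, not called. From 8 h to 24 h the change differed between genotypes for 1 gene, Nop10, by 0.36 ± 0.10 (SE, adjusted p = 0.0418), against 1.33% of all genes higher and 3.2% lower. Nop10 stood at 11.71, 11.66, 11.78 and 11.71 in Raptor-deficient cells, against 11.99, 11.86, 12.05 and 12.06 in wild-type cells at 8 h. At 24 h it stood at 11.86, 11.85, 11.99 and 11.91 in Raptor-deficient cells, against 11.83, 11.83, 11.82 and 11.78 in wild-type cells. The Raptor-deficient samples were all below the wild-type ones at 8 h and all above them at 24 h. The call was lost with the mean of all probe sets, with cyclic loess, with a replicate block within genotype, without replicate 1 of both 24 h groups and when any 1 of 14 of the 24 arrays was left out.

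**Figure D4:**
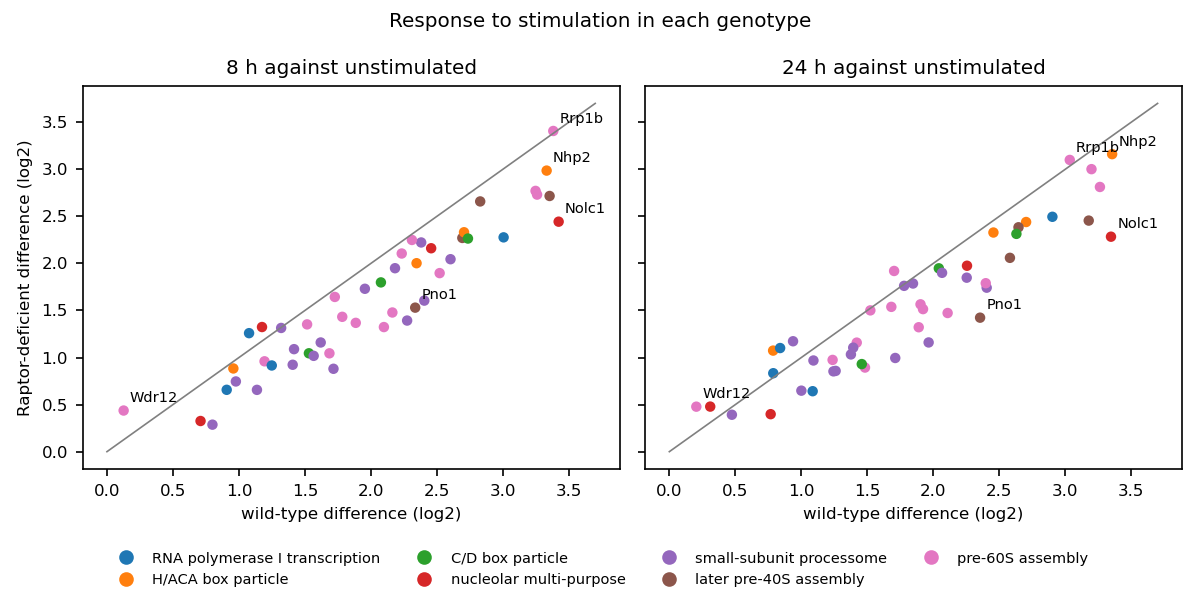
Each point is 1 of the 49 genes, with its log2 difference between stimulated and unstimulated cells in Raptor-deficient cells (y axis) and in wild-type cells (x axis), at 8 h (left) and 24 h (right), coloured by role. The grey line marks equal differences. Most points lie below it, Nolc1 (2.44 against 3.42 at 8 h) and Pno1 (1.42 against 2.35 at 24 h) among them, and Wdr12 lies above it.

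Expressed as a share, the Raptor-deficient rise at 8 h was a median of 81.0% of the wild-type log2 rise over the 43 genes that were called and at least 2-fold higher in wild-type cells, and 40 of the 43 (93%) lay under 100%. Choosing genes by their wild-type rise favours shares under 100%, and 88.3% of all genes chosen alike lay there, so these shares are a description. Over all 1149 genes that met the same condition the median was 73.3%. At 24 h the share was 81.6% over 41 genes, 39 of them (95.1%) under 100%, and 71.0% over all 1913 genes, of which 88.9% were under 100%. The members ranged from 51.3% to 117% at 8 h and from 58.1% to 113% at 24 h. They are counted among all genes, so their range cannot exceed that of all genes. The difference between the medians was not tested.

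Other probe sets of the same genes served as a check. The 27 genes with more than 1 probe set had 32 further ones, and 29 of the 32 had the sign of the brightest one for the difference between genotypes at 8 h, 21 of 32 at 24 h and 31 of 32 for the wild-type rise at 8 h. None of the 32 was called in the opposite direction to a call of the brightest probe set in these comparisons. Such a conflict needs both to be called, which held for 5 of the 32 at 8 h, 3 at 24 h and 31 for the wild-type rise. The 1 further probe set called lower for the wild-type rise was that of Wdr12, whose brightest one was not called.

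Myc RNA was not lower in Raptor-deficient cells at 8 h or 24 h. It stood at 11.85, 11.95, 12.17 and 11.86 in Raptor-deficient cells, against 11.56, 11.88, 11.95 and 11.86 in wild-type cells at 8 h, a difference of 0.14 ± 0.10 with adjusted p = 0.431. At 24 h it stood at 11.60, 11.78, 11.81 and 11.69 in Raptor-deficient cells, against 11.21, 11.20, 11.31 and 11.13 in wild-type cells and was higher in Raptor-deficient cells by 0.51 ± 0.10 (SE, adjusted p = 0.000406). Its groups overlapped at 8 h and not at 24 h. The Myc rise at 8 h was 4.12 in Raptor-deficient and 4.25 in wild-type cells.

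The wider pathway was read in 68 further ribosome biogenesis genes measured here. At 8 h in wild-type cells 59 of them were called higher and 4 lower (18.9% and 20.8% of all genes), led by Rpf2 (3.56), which helps to place the 5S particle, Rrp15 (3.47), a pre-60S protein, and Nifk (2.80), a nucleolar RNA-binding protein. In Raptor-deficient cells at 8 h 23 of the 68 were lower than in wild-type cells and 2 higher (8.77% and 4.14% of all genes), with a median of -0.26. At 24 h 14 were lower and 3 higher (13.1% and 8.35% of all genes), with a median of -0.18. Lyar (-0.91), a nucleolar zinc finger protein, Nop9 (-0.60), a pre-40S RNA-binding protein, and Rrp8 (-0.57), a methyltransferase, were the lowest of those called at 24 h. The 3 called higher were Rpf1 (0.56), Nop53 (0.55) and Nsa2 (0.31), all pre-60S factors.

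The RNA exosome, which trims precursor ends, had all 8 measured genes higher at 8 h in wild-type cells, and in Raptor-deficient cells 5 of 8 were lower than wild type at 8 h (8.77% of all genes) and 6 of 8 at 24 h (13.1% of all genes). Of the 67 cytosolic ribosomal proteins measured, the structural proteins of the finished ribosome, 14 (20.9%) were called higher at 8 h in wild-type cells, near the 18.9% of all genes, and 7 lower (20.8% of all genes), with a median of -0.01. In Raptor-deficient cells 8 of 67 were higher than wild type at 8 h and 2 lower (4.14% and 8.77% of all genes). The median over the 67 was 0.09. At 24 h 10 were higher and 2 lower (8.35% and 13.1% of all genes), with a median of 0.08. The difference between these lists was not tested.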

How the data were processed

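RNA from 24 samples was measured on Affymetrix HT MG-430 PM arrays. The authors deposited 1 table of log2 intensities, made with RMA and Partek 6.5 per the submitters' processing notes. Values ran from 1.64 to 13.8, with array medians between 5.15 and 5.29. Of 45141 probe sets, 28898 had 1 gene in the platform annotation, 551 had several and 15692 had none listed. Entrez numbers of 28689 matched RefSeq (GRCm38.p6). Choosing the probe set with the highest mean for each gene left 17097 genes, and no level filter was applied.

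Tests used limma 3.58.1 (R 4.3.3) with 6 group means, 18 residual degrees of freedom and empirical Bayes moderation. P-values were two-sided and adjusted by Benjamini-Hochberg over all genes within each of 12 comparisons, and calls were made at an adjusted p under 0.05. The number of arrays limits the precision.

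The members and lists were chosen with earlier results of these data known. Values in every sample are given, for each role, for the 2 called members with the largest difference between genotypes at 24 h and the 2 with the largest wild-type rise at 8 h, and members called against the main direction, the member not called at 8 h and the 3 smallest differences at 24 h are named. Of the other ribosome biogenesis genes, the 3 with the largest differences are named. Alternatives changed the probe set, scaling, weights, prior, filter, samples, replicate block and fold.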

Additional observations from a re-analysis of the deposited data

Results flagged for a closer look

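In 132 groups of 4 values, taken over 22 series (the members named with values, and the median over the 49 genes), 10 had 1 sample whose gap to its nearest neighbour exceeded Dixon's 95% critical value, and chance gives about 1 in 20 groups. Wild-type replicate 1 at 8 h had a median over the set of 0.69, against 0.83 to 0.86 in the other 3 samples, and its Gar1 (11.3) and Nop16 (8.23) were also low. Nop16 was high in unstimulated wild-type replicate 3, at 5.61. Unstimulated wild-type replicate 2 had Rrn3 at 7.26, and unstimulated wild-type replicate 1 had Nolc1 at 7.3 and Ltv1 at 6.61. Noc4l was high in wild-type replicate 3 at 8 h, at 10.16. Utp20 was high in Raptor-deficient replicate 3 at 8 h, at 9.08, and Rrp12 in unstimulated Raptor-deficient replicate 2, at 5.41.

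The response to 8 h of stimulation differed between genotypes, as Raptor-deficient minus wild-type change in log2, for 15 genes. In order of role these were Polr1b (-0.73), Nop56 (-0.49), Nop58 (-0.47), Npm1 (-0.38), Nolc1 (-0.98), Nop14 (-0.48), Utp20 (-0.56), Noc4l (-0.8), Imp3 (-0.48), Emg1 (-0.51), Pno1 (-0.81), Nop2 (-0.62), Pes1 (-0.77), Ddx18 (-0.64) and Nip7 (-0.68). The 24 h response differed for 13 genes, Rrn3 (-0.44), Nop56 (-0.53), Npm1 (-0.37), Nolc1 (-1.06), Utp20 (-0.41), Noc4l (-0.66), Bysl (-0.52), Rrp12 (-0.72), Pno1 (-0.93), Nop2 (-0.61), Pes1 (-0.57), Ddx18 (-0.59) and Nip7 (-0.64). The change between 8 h and 24 h differed for Nop10 (0.36). Several of these calls were lost in some of the 24 fits that each left out 1 array. At 8 h this held in 16 fits for Nolc1, 12 for Emg1, 8 for Nop14, 3 for Imp3 and 2 for Npm1. At 24 h it held in 17 fits for Bysl, 12 for Pes1, 12 for Utp20 and 9 for Rrn3, and the Nop10 call was lost in 14.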

How the results depend on the processing

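The rises with stimulation kept their direction and their counts within 47 to 49 genes whichever single sample was left out. Between genotypes, unstimulated cells had 2 genes called (0 higher, 2 lower). That number became 4 (2 higher, 2 lower) with the mean of all probe sets, the filter on dim genes, centred arrays or cyclic loess, 1 with only the groups compared or a fold of at least 1.5, and 7 (5 higher, 2 lower) without Raptor-deficient samples 2 and 3. Leaving out 1 sample gave 2 to 8. The 24 genes called at 8 h became 38 with array weights, 2 with a fold of at least 1.5 and 18 to 30 without 1 sample. The 18 called at 24 h, all lower, became 28 with array weights (1 higher, 27 lower), 30 with only the groups compared (1 higher, 29 lower), 2 with the fold and 15 to 22 without 1 sample. Wild-type cells at 24 h against 8 h had 11 calls, 19 with the mean of all probe sets, 2 with the fold and 8 to 13 without 1 sample. Raptor-deficient cells had 10, 1 with the fold and 7 to 10 without 1 sample. The difference in response at 8 h, 15 genes, became 7 with only the groups compared, 23 without unstimulated Raptor-deficient samples 2 and 3, 8 with the fold and 11 to 23 without 1 sample. At 24 h, 13 genes became 21 without those samples, 7 with the fold and 9 to 18 without 1 sample. The single call for the change between 8 h and 24 h became 0 with the mean of all probe sets, cyclic loess, the replicate block within genotype, the fold, or without both 24 h samples of number 1, and 0 to 1 without 1 sample. Of the values of single genes, 2652 kept direction and side of the threshold, 69 lost and 59 gained a call, and 1 reversed, Wdr12 at 8 h in wild-type cells (-0.26 with the mean of all probe sets). A fold threshold lowers counts by its construction, and the cause of the other changes was not tested.

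Replicate numbers were shared between groups. Correlations of the deviations of samples with the same number lay between -0.07 and 0.25, with 10 of 60 pairs over 0.1. Between genotypes all 4 pairs at 24 h (0.251, 0.064, 0.171 and 0.105) and all 4 at 8 h (0.196, 0.016, 0.236 and 0.062) were positive, with means of 0.147 and 0.128, against -0.049 and -0.043 for samples of different number. Since not every pair passed 0.1 and no label ties the numbers, they were not taken as pairs. With the replicate block 4 genes were called between genotypes without stimulation (2 higher, 2 lower), 23 at 8 h and 19 at 24 h, and 16 and 13 in the differences in response at 8 h and 24 h. The Nop56 call at 8 h was lost with it (adjusted p = 0.0517), and Rrp1b was called lower at 24 h (adjusted p = 0.0443).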
